A study of Mus musculus with 24 samples.

Results

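Primary medulloblastomas (MB) were set against normal mouse cerebellum. The comparison takes the 3 arrays titled as primary MB and the 3 titled as normal cerebellum, 6 of the 24 arrays of the series, chosen by title alone. The tumors came from adult Ptch1 mutant mice. The controls were wild-type cerebella, 2 at P6 (postnatal day 6) and 1 from an adult. Tumors and cerebella were snap-frozen whole and RNA was extracted with Trizol, so each array reads a mixture of cell types. Parental cultures of the SMB21, SMB55 and SMB56 medulloblastoma lines, from Ptch+/- mice, entered the model as 1 mean per line, only to share the estimate of the spread. The age in the labels of P6 replicate 2 conflicts with its title and source name, and the title was followed. No label gives the Ptch1 allele, the strain or the sex of the animals.

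Medulloblastoma of the Hedgehog type arises from granule neuron precursors, which divide in the outer layer of the cerebellum in the first weeks after birth. Purkinje cells below them secrete Sonic hedgehog, which binds Patched 1 (Ptch1) and so relieves the block that Ptch1 places on Smoothened (Smo). Active Smo turns the Gli transcription factors into activators, and loss of Ptch1 keeps that branch on. A P6 cerebellum therefore holds many dividing precursors, while an adult cerebellum holds mature granule neurons and hardly any dividing cells. For this reason the levels of the genes described are given for each control array, so that the ages can be told apart.

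Levels are log2 of the deposited intensity plus 16, with 1 probe set per gene, and every change is a difference of such levels. The probe set of a gene was the one with the highest mean over all arrays. A fold change of a weak gene is understated on this scale. Over the 12394 genes the median level was 8.24, and 25% of genes lay below 6.21, where a gene is said to be at the floor. Linear array medians lay between 188.8 and 197 in the tumors, 206.7 and 209 in the P6 cerebella and 202.4 in the adult one. Two-sided p-values are limma's, adjusted by Benjamini-Hochberg over all genes, with a call at an adjusted p under 0.05. They measure the spread between these arrays and between the 3 line means. The titles of the arrays call the replicates biological without saying which animals they came from. SE is the standard error of a difference between 3 tumors and 3 cerebella unless P6 is named, with the spread taken from all 9 values of the model.

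The tumors lay nearer to P6 than to adult cerebellum in their overall profile. Across the 12394 genes, which are not independent replicates, a tumor correlated with another tumor at 0.968 to 0.986, with a P6 cerebellum at 0.936 to 0.95 and with the adult cerebellum at 0.841 to 0.868. The P6 arrays correlated with each other at 0.997 and with the adult array at 0.913 and 0.915. The root mean square difference was 0.179 (log2) between the P6 arrays and 0.393 to 0.582 between tumors. The P6 pair is thus much tighter than the tumors, and tests that use P6 alone lean on that pair.

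Of the 12394 genes, 1076 (8.68%) were called between tumors and all 3 cerebella, 434 (3.5%) higher in tumors and 642 (5.18%) lower. The change was at least 2-fold in 179 of the higher and 470 of the lower genes. The call was kept by 88 (0.71%) higher and 249 (2.01%) lower genes in each of the 9 fits that left out 1 array or line, and such a gene is called steady below. After each array was centred at its median, the calls were 608 higher and 548 lower, with quantile normalization 704 and 591, and after centring the median difference of all genes was 0.13 instead of 0.04. The total fell to 433 without P6 replicate 2, 547 without tumor 1, 549 without tumor 2, 409 without tumor 3 and 652 without P6 replicate 1. The tumors were above all controls in 2707 genes (21.8%) and below all in 2108 (17%), 38.8% of genes together. Against P6 alone 1361 genes (11%) were called, 533 (4.3%) higher and 828 (6.68%) lower (749 and 710 centred, 829 and 756 quantile normalized), a total that fell to 367 and 341 without P6 replicates 1 and 2 and 774 without tumor 3. Against the single adult array, whose spread is taken from the other groups, 3826 genes (30.9%) were called, 1882 (15.2%) higher and 1944 (15.7%) lower. The last 2 comparisons share the tumors with the first, and the controls are parts of the same 3 arrays.

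Genes that change between P6 and adult cerebellum showed where the tumors lay along that path. In 290 genes the adult array lay at least 2 (log2, 4-fold) below both P6 arrays, and the tumor mean was nearer P6 in 245 of them (84.5%). The tumor mean was above both ages in 186, between them in 81 and below both in 23. Each tumor alone gave nearly the same count, 246, 245 and 245. In 272 genes the adult array lay at least 2 above both P6 arrays, and the tumor mean was nearer P6 in 262 (96.3%), with tumors 1, 2 and 3 alone at 235, 254 and 268. Of these, 170 were below both ages, 101 between and 1 above both. The median tumor difference from P6 was 0.18 in the genes that are low in the adult and -0.25 in those that are high in it, against 3.13 and -3.11 from the adult. These are counts without a test.

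**Figure D1:**
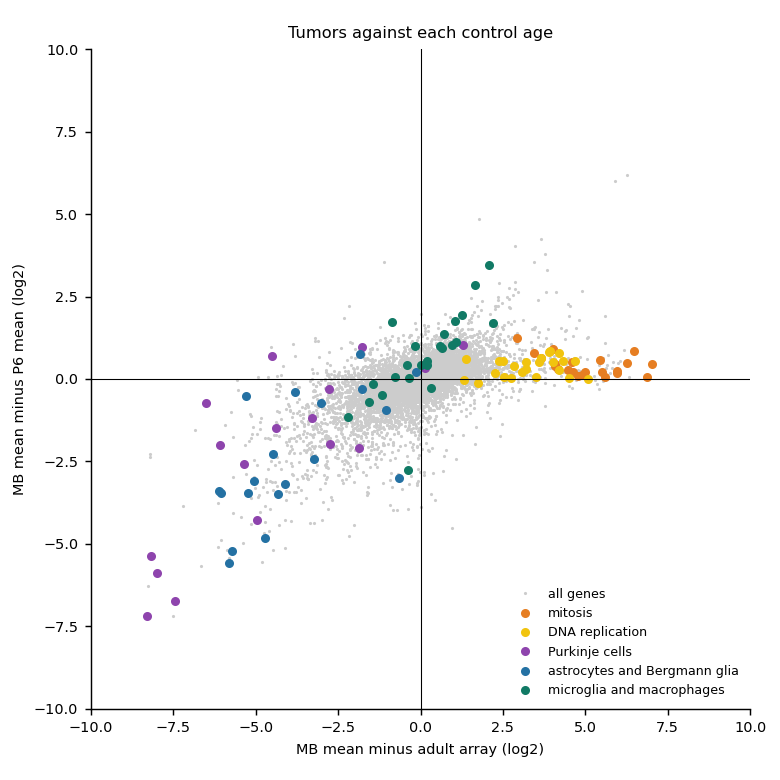
Difference of the MB mean from the P6 mean (vertical axis, log2) against its difference from the adult array (horizontal axis, log2), 1 point per gene, with all 12394 genes in grey and 5 gene lists in colour. Mitosis and DNA replication genes spread far to the right and stay near 0 on the vertical axis, and most Purkinje cell and astrocyte genes lie low on both axes, which share the MB mean.

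Hedgehog ligands were at or near the floor in every tissue. Shh, the ligand that Purkinje cells secrete, read 5.16, 5.19 and 5.17 in tumors 1, 2 and 3, against 5.03 and 5.04 in the P6 cerebella and 5.10 in the adult cerebellum. Dhh read 6.32, 6.18 and 6.41 in the tumors, against 6.27 and 6.23 at P6 and 6.10 in the adult. Of 10 measured ligands and receptors 1 rose, against 3.5% of all genes, and it was steady. By limma 0 fell (1 at an unadjusted p under 0.05), and 1 did without the adult. Boc, a co-receptor that binds the ligand beside Ptch1, read 10.35, 10.21 and 10.58 in tumors 1, 2 and 3, against 9.12 and 8.84 at P6 and 8.41 in the adult. No tumor overlapped a control, and Boc rose by 1.59 (SE 0.20, adjusted p = 0.00412). Against P6 alone it rose by 1.40 (SE 0.16, adjusted p = 0.00298), a call that held in every leave-one-out fit, as for 0.355% of all genes. A second probe set of Boc rose by 1.70, and the last of its 3, at a mean level of 5.14, differed by -0.07 and did not pass. The co-receptor Gas1 read 11.78, 12.13 and 12.56 in tumors 1, 2 and 3, against 11.93 and 11.91 at P6 and 12.15 in the adult, with tumors and controls overlapping. Hhip, a decoy receptor induced by the pathway, read 6.18, 7.23 and 6.45 in tumors 1, 2 and 3, against 5.86 and 5.83 at P6 and 5.68 in the adult. Tumor 2 was highest, and the difference of 0.83 (SE 0.53, adjusted p = 0.338) did not pass.

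Ptch1, the gene mutated in these mice, did not separate the groups. It read 11.68, 11.47 and 12.96 in tumors 1, 2 and 3, against 12.06 and 11.72 at P6 and 12.49 in the adult. Tumor 3 was above and tumors 1 and 2 below the adult value, and the difference was -0.06 (SE 0.40, adjusted p = 0.944). Whether the probe set lies in the altered part of the gene is not known here, so the level says nothing about the genotype. The sign of so small a difference turned under several settings.

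The transducers lay above the controls more often than they passed the test. Of 7 measured transducers 6 were above all 3 cerebella in each tumor, against 21.8% of all genes. Their median difference was 1.10 from all cerebella and 0.88 from P6, against 0.04 and 0.05 for all genes. Over all cerebella 2 rose, Gli1 and Smo, and 0 did without tumor 2 or tumor 3 and 1 without either P6 array, the adult, line SMB55 or line SMB56. Over P6 1 rose, against 4.3% of all genes, with 2 without tumor 1 or line SMB21 and 3 without line SMB55. Over the adult 6 rose, against 15.2% of all genes. Gli1, an effector that is itself a target, read 9.22, 10.03 and 9.64 in tumors 1, 2 and 3, against 8.09 and 7.84 at P6 and 6.87 in the adult. It ran in the order tumors, P6, adult without overlap and rose by 2.03 (SE 0.36, adjusted p = 0.0173). The call ended without tumor 2 (adjusted p = 0.0598) or tumor 3 (0.0633). Against P6 Gli1 rose by 1.67 (SE 0.30, adjusted p = 0.016), and that call ended without P6 replicate 1 (0.0918), P6 replicate 2 (0.146) or tumor 3 (0.0523).

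Gli2, the main activating Gli factor, read 11.72, 11.79 and 12.25 in tumors 1, 2 and 3, against 10.75 and 10.62 at P6 and 8.10 in the adult. Tumors were about 1 unit above P6 and the adult lay far below both. The test against all cerebella pools the ages and counts the gap between them as spread. The difference from all cerebella, 2.10 (SE 0.69, adjusted p = 0.102), thus carried a wide error and did not pass. Whether it passed depended on this pooling, and a separate adult mean rests on 1 array. The difference from P6 was 1.24 (SE 0.36, adjusted p = 0.0761). Sufu, which holds Gli factors in the cytoplasm, had the same order, at 10.06, 10.40 and 10.64 in tumors 1, 2 and 3, against 9.54 and 9.43 at P6 and 7.18 in the adult. Smo read 10.79, 11.69 and 11.07 in tumors 1, 2 and 3, against 10.31 and 10.15 at P6 and 9.79 in the adult. It rose by 1.10 (SE 0.25, adjusted p = 0.0383), and the call ended without either P6 array, the adult, tumor 2, tumor 3, line SMB55 or line SMB56 (adjusted p between 0.0516 and 0.0998). Gli3, mainly a repressor, stayed at the floor at 5.25, 5.46 and 5.54 in tumors 1, 2 and 3, against 5.33 and 5.39 at P6 and 5.47 in the adult.

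**Figure D2:**
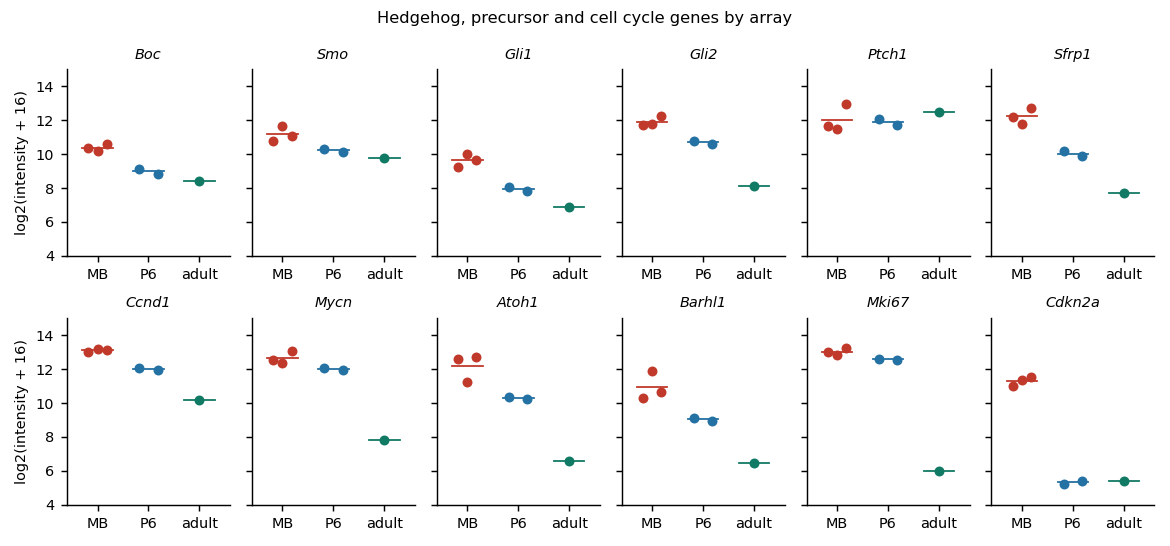
Levels of 12 genes of the Hedgehog pathway, the precursor state and the cell cycle, log2(intensity + 16), with 1 point per array and a line at each group's mean (3 MB, 2 P6, 1 adult). Mycn, Mki67 and Gli2 are far lower in the adult than in tumors and P6, Ptch1 overlaps in all groups, and Cdkn2a is high in the tumors alone among these arrays.

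Of 14 measured Hedgehog target genes 4 rose and 3 fell against all cerebella, against 3.5% and 5.18% of all genes, with a median difference of 1.26. Against P6 5 rose and 3 fell, against 4.3% and 6.68% of all genes, with a median of 0.65. The rises over P6 were 3 without P6 replicate 1 and 1 without P6 replicate 2, and the falls 1 without either. The rises were of Gli1, Sfrp1, Foxm1 and Cdk6, of which Cdk6 alone was steady. Without tumors 1, 2 and 3 in turn 2, 1 and 1 rises were left, and without P6 replicate 2 there were 2. Cdk6, a kinase that drives the first phase of the cell cycle, read 8.83, 8.27 and 8.58 in tumors 1, 2 and 3, against 5.98 and 6.17 at P6 and 5.95 in the adult. Both control ages lay at the floor and the rise was 2.53 (SE 0.36, adjusted p = 0.00676). Sfrp1, a secreted antagonist of Wnt signals, read 12.18, 11.78 and 12.71 in tumors 1, 2 and 3, against 10.16 and 9.88 at P6 and 7.71 in the adult. It rose by 2.98 (SE 0.61, adjusted p = 0.0272), a call lost without P6 replicate 2 or any 1 tumor (adjusted p between 0.0531 and 0.097). Cyclin D1 (Ccnd1) read 13.01, 13.17 and 13.15 in tumors 1, 2 and 3, against 12.08 and 11.96 at P6 and 10.21 in the adult. The 3 tumors lay within 0.2 of each other and 1.09 above P6. Ccnd1 did not pass against all cerebella (1.69 (SE 0.44, adjusted p = 0.0565)) and did against P6 (1.09 (SE 0.10, adjusted p = 0.0012)), where it held in every leave-one-out fit. Against all cerebella it passed when centred (0.0428), quantile normalized (0.0482) or without the adult (0.0012), and a weaker probe set rose by 2.25 (adjusted p = 0.0387 over all probe sets).

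Mycn, a proto-oncogene that the pathway keeps active in precursors, read 12.55, 12.37 and 13.05 in tumors 1, 2 and 3, against 12.04 and 11.93 at P6 and 7.81 in the adult. Its difference was 2.06 (SE 1.07, adjusted p = 0.253) from all cerebella and 0.67 (SE 0.45, adjusted p = 0.371) from P6, so the distance came from the adult array. Ccnd2, cyclin D2, had the same shape, 13.96, 14.07 and 14.16 in tumors 1, 2 and 3, against 13.55 and 13.33 at P6 and 9.59 in the adult. The third fall was of Rab34. Nkx2-2, which Hedgehog induces in the ventral neural tube, and the growth factor Igf2 were steady falls. Nkx2-2 read 6.19, 6.09 and 5.90 in tumors 1, 2 and 3, against 8.23 and 8.46 at P6 and 7.59 in the adult. Igf2 read 7.69, 8.45 and 8.39 in tumors 1, 2 and 3, against 12.53 and 12.37 at P6 and 12.29 in the adult and fell by 4.22 (SE 0.51, adjusted p = 0.00325).

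The 9-letter Gli site GACCACCCA, searched on both strands, was in none of the 23 RefSeq promoter windows (250 bases before the start) of the 19 Hedgehog list genes that have one. It was in 74 of all 32851 windows (0.225%). A window of this size says nothing about sites farther away.

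Cell division genes of the tumors lay near their P6 levels, and the adult cerebellum stood apart from both. By limma 0 of 24 DNA replication genes passed against all cerebella (6 rose at an unadjusted p under 0.05), 4 rose over P6 and all 24 rose over the adult. By limma 1 of 22 mitosis genes passed against all cerebella, 3 rose over P6 and all 22 rose over the adult. Of all genes 3.5% rose against all cerebella, 4.3% over P6 and 15.2% over the adult. Without the adult array 4 replication and 3 mitosis genes passed. Every tumor was above all 3 cerebella in 13 of the 24 replication and 14 of the 22 mitosis genes, against 21.8% of all genes. The median replication gene differed by 0.46 from P6 and 3.35 from the adult, and the median mitosis gene by 0.35 and 4.84, against 0.05 and 0.03 for all genes. The rises over P6 of replication genes were of Mcm2, Mcm7, Cdt1 and Ung, and those of mitosis genes of Plk1, Bub1b and Foxm1. Without P6 replicate 1 they were 0 and 1, without P6 replicate 2 they were 0 and 0, and without tumor 3 the replication rises were 1.

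Mki67, which marks dividing cells, read 13.00, 12.81 and 13.24 in tumors 1, 2 and 3, against 12.62 and 12.53 at P6 and 5.98 in the adult. Top2a, a topoisomerase of the dividing cell, read 12.82, 12.55 and 13.00 in tumors 1, 2 and 3, against 12.70 and 12.74 at P6 and 5.92 in the adult. Tumors and P6 were within 0.5 of each other in Top2a while the adult was at the floor. Mcm7, a subunit of the replicative helicase, read 13.50, 13.51 and 13.68 in tumors 1, 2 and 3, against 13.06 and 13.04 at P6 and 9.96 in the adult. It rose over P6 by 0.52 (SE 0.10, adjusted p = 0.0213), a call lost without either P6 array or tumor 3. Pcna, the sliding clamp, read 13.73, 13.67 and 13.91 in tumors 1, 2 and 3, against 13.83 and 13.94 at P6 and 12.03 in the adult, with tumor 3 at the level of P6 and the other tumors just below it. Foxm1, which drives mitotic genes, read 8.55, 8.90 and 8.66 in tumors 1, 2 and 3, against 7.61 and 7.29 at P6 and 5.77 in the adult and rose by 1.82 (SE 0.43, adjusted p = 0.0413). That call was lost without P6 replicate 2, any 1 tumor or any 1 line (adjusted p between 0.0599 and 0.119). Foxm1 is thus the 1 mitosis call and is not steady. Of the 22 mitosis genes 18 were highest in tumor 3, as were 18 of the 24 replication genes. Here and below, counts of genes highest in 1 tumor are given without the share over all genes, and the arrays were not rescaled.

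Inhibitors of the cell cycle did not follow 1 pattern. Of 7 measured Cdk inhibitors Cdkn2a and Cdkn2b rose, both steady, against 3.5% of all genes that rose and 0.71% that were steady rises. Cdkn2a, which encodes p16Ink4a and p19Arf from separate starts, read 11.01, 11.38 and 11.56 in tumors 1, 2 and 3, against 5.23 and 5.41 at P6 and 5.42 in the adult. All controls were at the floor and every tumor was above 11. It rose by 5.96 (SE 0.19, adjusted p = 8.38e-06), the smallest p of the named rises. Which of its transcripts the probe set reads is not known here. Cdkn2b, which encodes p15Ink4b and is the next gene on chromosome 4, read 8.89, 8.46 and 7.83 in tumors 1, 2 and 3, against 5.90 and 5.90 at P6 and 6.04 in the adult. It rose by 2.45 (SE 0.29, adjusted p = 0.00325), with tumor 3 lowest of the tumors.

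The promoters of this pair of neighbours are shown because both genes were at the floor of the scale in every control and well above it in every tumor. Each sequence is the 250 bases before a RefSeq start on the minus strand of GRCm38.p6, 5′ to 3′.
Cdkn2a, start 1, chr4:89282193-89282442: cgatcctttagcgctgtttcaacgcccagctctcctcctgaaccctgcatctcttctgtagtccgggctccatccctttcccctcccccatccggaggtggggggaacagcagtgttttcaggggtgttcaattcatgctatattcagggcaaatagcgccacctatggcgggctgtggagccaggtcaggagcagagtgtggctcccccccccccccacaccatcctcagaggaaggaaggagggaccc
Cdkn2a, start 2, chr4:89294620-89294869: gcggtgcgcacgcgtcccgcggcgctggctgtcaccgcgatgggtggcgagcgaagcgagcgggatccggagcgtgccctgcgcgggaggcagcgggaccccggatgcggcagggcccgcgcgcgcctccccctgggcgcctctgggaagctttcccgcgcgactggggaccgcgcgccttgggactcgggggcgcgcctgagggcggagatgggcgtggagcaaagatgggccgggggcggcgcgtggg
Cdkn2b, chr4:89311033-89311282: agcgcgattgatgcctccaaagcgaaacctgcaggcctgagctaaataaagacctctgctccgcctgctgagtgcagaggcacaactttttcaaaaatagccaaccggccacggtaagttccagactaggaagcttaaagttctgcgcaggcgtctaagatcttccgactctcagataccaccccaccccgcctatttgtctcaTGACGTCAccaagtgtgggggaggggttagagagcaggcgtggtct
The Gli site was in none of these windows. Capitals mark TGACGTCA, the cyclic AMP response element, which reads the same on both strands. It was found in the Cdkn2b window and not in the Cdkn2a ones. It was in 508 of the 32851 windows (1.55%) and in 5 of the 111 windows of steady rises (4.5%). A match of letters is a description, not a site.

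Cdkn1b, encoding p27Kip1, a brake on precursor division, read 12.97, 12.83 and 12.80 in tumors 1, 2 and 3, against 12.29 and 12.27 at P6 and 12.09 in the adult. The tumors were above all controls by a small step that did not pass (0.65 (SE 0.18, adjusted p = 0.0685)). It passed without line SMB55 (0.0403) or line SMB56 (0.0355) and with the 6 tissue arrays alone (0.0303), and a weaker probe set rose by 1.33 (adjusted p = 0.0329 over all probe sets). Cdkn2c, encoding p18Ink4c, read 11.48, 11.25 and 11.61 in tumors 1, 2 and 3, against 10.73 and 10.74 at P6 and 8.73 in the adult, with the adult far below. Of 17 measured p53 targets 2 rose and 1 fell against all cerebella, against 3.5% and 5.18% of all genes. Without either P6 array or any 1 tumor 0 rose, and without the adult 1 did. Mdm2, the ubiquitin ligase that restrains p53, read 10.15, 10.49 and 10.10 in tumors 1, 2 and 3, against 9.03 and 9.06 at P6 and 9.63 in the adult and rose by 1.01 (SE 0.22, adjusted p = 0.032). Its adjusted p was 0.0844 and 0.0997 without P6 replicates 1 and 2, and 0.0718, 0.0992 and 0.079 without tumors 1, 2 and 3. Plk2, a kinase induced by p53, was a steady fall at 8.51, 8.32 and 7.60 in tumors 1, 2 and 3, against 9.90 and 9.66 at P6 and 9.77 in the adult. Without line SMB55 2 genes fell. Of the 17 p53 targets 12 were highest in tumor 1.

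Genes of granule precursors followed more than 1 pattern. Of 18 measured, 1 rose and 1 fell against all cerebella, 4 rose and 1 fell against P6, and 10 rose and 1 fell against the adult. The shares of all genes were 3.5% and 5.18%, 4.3% and 6.68%, and 15.2% and 15.7%. The median difference was 0.39 from all cerebella, and 4 rose without the adult array. The 4 rises over P6 were 1 without P6 replicate 1, P6 replicate 2 or tumor 3, and 2 without tumor 1. Atoh1, the factor that specifies granule precursors, read 12.60, 11.25 and 12.71 in tumors 1, 2 and 3, against 10.33 and 10.23 at P6 and 6.58 in the adult. Tumors 1 and 3 were more than 2 units above P6 and tumor 2 was 1 unit above. Its difference was 3.14 (SE 0.96, adjusted p = 0.0832) from all cerebella, which did not pass, and 1.91 (SE 0.42, adjusted p = 0.0346) from P6. The P6 call was lost without either P6 array (0.168 and 0.215), tumor 1 (0.0778), tumor 3 (0.0884) or line SMB56 (0.0549). Barhl1, a homeobox factor downstream of Atoh1, read 10.29, 11.89 and 10.64 in tumors 1, 2 and 3, against 9.13 and 8.94 at P6 and 6.44 in the adult. Tumor 2 was highest here, where it was lowest in Atoh1. Barhl1 rose over P6 by 1.91 (SE 0.42, adjusted p = 0.0349), a call lost without either P6 array (0.161 and 0.227), tumor 3 (0.0665) or line SMB56 (0.0569). A weaker probe set of Barhl1 rose over all cerebella by 2.58 (adjusted p = 0.0305 over all probe sets).

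Zic1, a factor of granule cells at all ages, read 13.98, 13.83 and 13.87 in tumors 1, 2 and 3, against 13.80 and 13.72 at P6 and 13.65 in the adult. Neurod1, which acts in their differentiation, read 14.21, 13.87 and 13.82 in tumors 1, 2 and 3, against 13.91 and 13.74 at P6 and 13.20 in the adult. Both were near the top of the scale in every array. Meis2 was a steady fall at 5.73, 5.93 and 5.64 in tumors 1, 2 and 3, against 7.22 and 7.35 at P6 and 7.02 in the adult. Lhx2, a LIM homeobox factor, was a steady rise at 8.53, 9.31 and 8.55 in tumors 1, 2 and 3, against 5.37 and 5.14 at P6 and 5.36 in the adult, by 3.51 (SE 0.32, adjusted p = 0.00084).

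Of the 12 largest steady falls 8 were of genes of Purkinje cells, astrocytes, choroid plexus and meninges. In whole tissue, fewer cells of a type and less RNA per cell cannot be told apart. Of 17 measured Purkinje genes 7 fell and 1 rose, against 5.18% and 3.5% of all genes. Of the falls 6 were steady, with steady falls in 2.01% of all genes. Car8, an inactive carbonic anhydrase of Purkinje cells, read 5.66, 6.56 and 5.37 in tumors 1, 2 and 3, against 13.11 and 13.01 at P6 and 14.16 in the adult. It was near the top of the scale in every control and at the floor in 2 tumors. The calcium binding protein Calb1 read 8.89, 6.13 and 5.65 in tumors 1, 2 and 3, against 13.68 and 13.59 at P6 and 14.35 in the adult. Tumor 1 was more than 2 units above the other tumors. Pcp2, a Purkinje cell protein, read 6.13, 6.26 and 6.02 in tumors 1, 2 and 3, against 11.39 and 11.62 at P6 and 14.30 in the adult, with all tumors near the floor. Gad1, which makes GABA in Purkinje cells and other inhibitory neurons, read 5.70, 5.99 and 5.69 in tumors 1, 2 and 3, against 11.80 and 11.55 at P6 and 13.78 in the adult. These falls were -7.56, -6.98, -6.30 and -6.58, with adjusted p of 0.00244, 0.00244, 0.00198 and 0.000693. A weaker probe set of Gad1 fell by 2.67 and missed the threshold at an adjusted p of 0.0614 over all probe sets. Lhx5, a factor of young Purkinje cells, was also a steady fall at 6.33, 6.22 and 6.26 in tumors 1, 2 and 3, against 8.30 and 8.40 at P6 and 8.14 in the adult. Pcp4, a calmodulin regulator, was another, at 8.95, 10.26 and 9.65 in tumors 1, 2 and 3, against 13.81 and 13.97 at P6 and 14.59 in the adult. The 1 rise, Lhx1, read 12.30, 12.49 and 12.25 in tumors 1, 2 and 3, against 11.40 and 11.22 at P6 and 11.05 in the adult. Its difference was 1.13 (SE 0.26, adjusted p = 0.04), and the call was lost without either P6 array, the adult, any 1 tumor or line SMB56. Rora, a nuclear receptor of Purkinje cells, read 9.69, 9.43 and 9.11 in tumors 1, 2 and 3, against 10.67 and 10.55 at P6 and 12.71 in the adult, with every tumor below every control, and did not pass at -1.90 (SE 0.53, adjusted p = 0.0664). Pvalb, also on this list, overlapped P6. It read 10.49, 8.34 and 10.91 in tumors 1, 2 and 3, against 8.87 and 9.59 at P6 and 14.41 in the adult. The mean level over the 17 genes was 7.65, 7.47 and 7.31 in tumors 1, 2 and 3, against 9.73 and 9.78 at P6 and 11.87 in the adult.

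Of 19 measured genes of astrocytes and Bergmann glia 11 fell, against 5.18% of all genes, and 7 falls were steady. By limma 0 rose (0 rises at an unadjusted p under 0.05). The median difference of the 19 genes was -3.02, the falls numbered 7 without tumor 1, and 1 rose without the adult. Aldh1l1, a folate enzyme of astrocytes, read 6.11, 5.73 and 5.70 in tumors 1, 2 and 3, against 10.67 and 10.67 at P6 and 10.56 in the adult. Control arrays of both ages lay within 0.12 of each other, and the fall was -4.79 (SE 0.13, adjusted p = 3.01e-06). Aqp4, the water channel of astrocyte endfeet, read 7.83, 7.73 and 6.05 in tumors 1, 2 and 3, against 12.67 and 12.90 at P6 and 13.03 in the adult. Gja1, connexin 43, read 8.20, 7.80 and 8.03 in tumors 1, 2 and 3, against 13.23 and 13.25 at P6 and 13.72 in the adult. Slc1a3, a glutamate transporter of Bergmann glia, kept a higher level, 9.43, 10.13 and 10.27 in tumors 1, 2 and 3, against 12.40 and 12.37 at P6 and 13.17 in the adult, and fell by 2.70 (SE 0.30, adjusted p = 0.00212). Hopx, a factor of Bergmann glia, read 8.65, 8.77 and 8.72 in tumors 1, 2 and 3, against 12.02 and 12.32 at P6 and 13.93 in the adult. Fabp7, a lipid binding protein of radial and Bergmann glia that is high at P6, read 11.71, 12.07 and 11.26 in tumors 1, 2 and 3, against 14.75 and 14.64 at P6 and 12.33 in the adult. Every tumor was below every control. Its difference was -2.23 (SE 1.28, adjusted p = 0.295) from all cerebella and -3.02 (SE 1.35, adjusted p = 0.198) from P6, and neither passed. With the 6 tissue arrays alone the fall of Fabp7 from P6 passed (adjusted p = 0.00337). Glul, glutamine synthetase, read 11.96, 12.37 and 12.16 in tumors 1, 2 and 3, against 12.52 and 12.41 at P6 and 13.93 in the adult, and did not pass against all cerebella. S100b overlapped P6, at 10.30, 9.37 and 10.11 in tumors 1, 2 and 3, against 10.05 and 10.58 at P6 and 13.725 in the adult. The mean of the 19 genes was 8.17 to 8.23 in the tumors, against 10.50 and 10.67 at P6 and 12 in the adult.

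A few genes of the oligodendrocyte lineage fell. Of 14 measured, 3 fell, 2 of them steady, against 5.18% and 2.01% of all genes, and 5 fell without the adult or line SMB21. The median difference was -1.65. Cnp, a myelin enzyme, read 9.73, 9.34 and 8.77 in tumors 1, 2 and 3, against 12.36 and 12.77 at P6 and 14.05 in the adult. Cldn11, a tight junction protein of myelin, read 6.61, 6.30 and 6.54 in tumors 1, 2 and 3, against 9.79 and 9.99 at P6 and 10.56 in the adult. Myelin basic protein (Mbp) read 9.74, 9.04 and 7.42 in tumors 1, 2 and 3, against 12.51 and 13.07 at P6 and 14.41 in the adult. Tumor 3 was lowest, and the difference of -4.60 (SE 1.20, adjusted p = 0.0558) did not pass. Of its 7 other probe sets 4 passed over all probe sets, with falls of 4.85 to 5.42, 1 differed by -3.48 and did not pass, and 2 were higher in tumors, by 1.30 and 1.37, and did not pass. Pdgfra, which marks oligodendrocyte precursors and some fibroblasts, went the other way in level, 12.23, 12.41 and 11.78 in tumors 1, 2 and 3, against 11.83 and 11.61 at P6 and 10.19 in the adult, without passing (0.93 (SE 0.41, adjusted p = 0.195)).

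Of 14 measured genes of the choroid plexus and ependyma 6 fell, 4 of them steady, against 5.18% and 2.01% of all genes. The median difference was -2.31. Transthyretin (Ttr), secreted by the choroid plexus, read 5.99, 6.32 and 6.24 in tumors 1, 2 and 3, against 12.90 and 12.01 at P6 and 14.45 in the adult. Tumors were near the floor, and the fall was -6.93 (SE 0.53, adjusted p = 0.000377). Foxj1, which drives motile cilia, read 5.89, 5.96 and 5.86 in tumors 1, 2 and 3, against 7.06 and 7.49 at P6 and 7.94 in the adult. The homeobox gene Msx1 read 6.45, 6.56 and 6.39 in tumors 1, 2 and 3, against 8.24 and 8.26 at P6 and 9.37 in the adult. Of 20 measured genes of meninges and fibroblasts 10 fell, 7 of them steady, against 5.18% and 2.01% of all genes. The median difference was -2.52. From P6 13 fell, against 6.68% of all genes, and 7 without either P6 array. Aldh1a2, which makes retinoic acid in the meninges, read 5.73, 5.68 and 5.69 in tumors 1, 2 and 3, against 8.27 and 8.34 at P6 and 8.60 in the adult, with each group held within 0.4. Ogn, a matrix proteoglycan, read 5.32, 5.30 and 6.76 in tumors 1, 2 and 3, against 11.06 and 10.89 at P6 and 11.66 in the adult, with tumor 3 above the other tumors. Foxc1 and Foxc2, forkhead factors of the meninges, did not overlap the controls either. Foxd1, also on this list, did overlap. It read 11.82, 6.64 and 12.52 in tumors 1, 2 and 3, against 9.60 and 9.50 at P6 and 9.34 in the adult. Foxc1 read 6.07, 6.29 and 5.82 in tumors 1, 2 and 3, against 8.61 and 8.59 at P6 and 8.27 in the adult. Foxc2 read 5.94, 5.62 and 6.01 in tumors 1, 2 and 3, against 8.09 and 8.22 at P6 and 9.07 in the adult. Ptgds, prostaglandin D synthase, read 9.27, 8.74 and 10.15 in tumors 1, 2 and 3, against 14.40 and 14.35 at P6 and 14.79 in the adult. The collagen gene Col3a1 depended on the age of the control, 8.72, 8.73 and 10.83 in tumors 1, 2 and 3, against 13.49 and 13.26 at P6 and 9.80 in the adult. It fell from P6 by 3.95 (SE 0.62, adjusted p = 0.0103) and lost that call without either P6 array (0.0886 and 0.0858).

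Some vessel genes were lower in tumors than at P6. Of 19 measured genes of endothelium and pericytes 3 fell against all cerebella, 10 against P6 and 4 against the adult. Of all genes 5.18%, 6.68% and 15.7% did. The 3 became 10 without the adult array, and the 10 against P6 became 6 without P6 replicate 2. Kdr, a VEGF receptor of endothelium, read 6.80, 6.68 and 6.81 in tumors 1, 2 and 3, against 9.13 and 9.03 at P6 and 6.80 in the adult, so tumors and adult were level and P6 was above both. It fell from P6 by 2.32 (SE 0.09, adjusted p = 2.12e-05). Tek, an angiopoietin receptor, read 5.51, 5.97 and 5.41 in tumors 1, 2 and 3, against 8.55 and 8.47 at P6 and 6.32 in the adult and fell from P6 by 2.88 (SE 0.17, adjusted p = 0.000139). Both calls held in every leave-one-out fit, as 2.02% of all genes did as falls from P6. Cldn5, a tight junction protein of brain endothelium, read 8.78, 9.21 and 7.40 in tumors 1, 2 and 3, against 12.08 and 12.19 at P6 and 8.04 in the adult and fell from P6 by 3.67 (SE 0.47, adjusted p = 0.00456), a call lost without P6 replicate 2 (0.0546). Pdgfrb, a receptor of pericytes, and Abcb1a, an efflux pump of brain endothelium, were steady falls against all cerebella. Pdgfrb read 7.37, 6.54 and 7.17 in tumors 1, 2 and 3, against 9.63 and 9.56 at P6 and 9.34 in the adult. Abcb1a read 6.33, 6.20 and 6.22 in tumors 1, 2 and 3, against 7.70 and 7.76 at P6 and 8.24 in the adult.

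**Figure D3:**
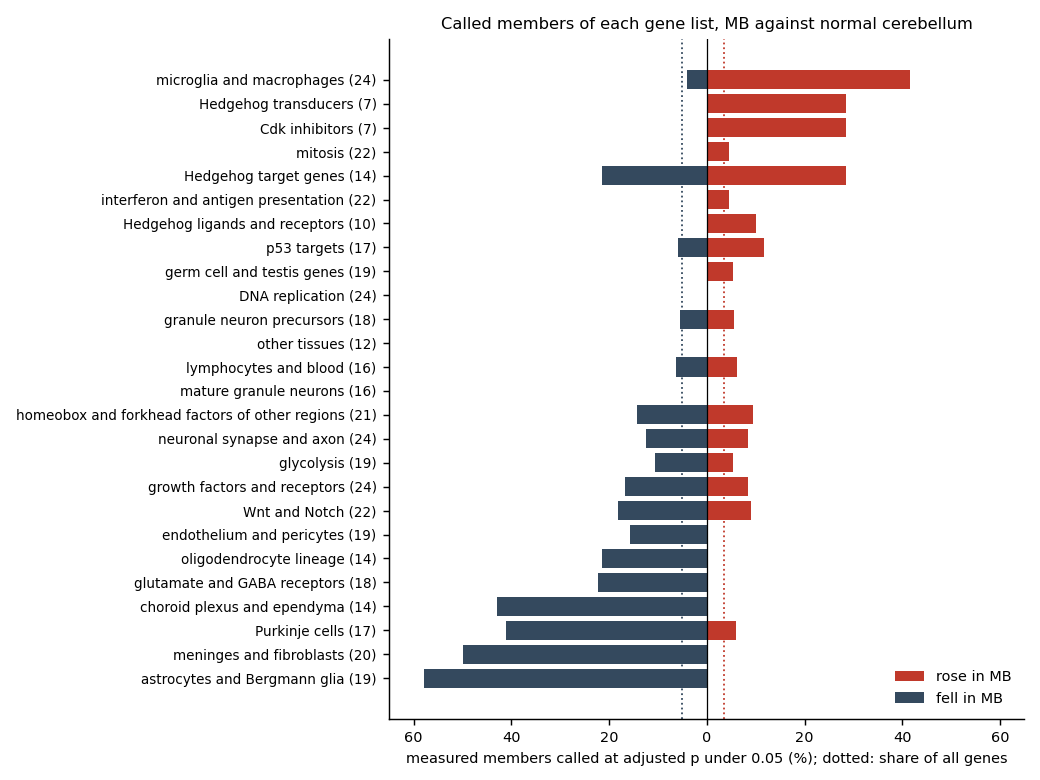
Share of measured members of each of 26 gene lists (number measured in brackets) that rose (red, right) or fell (dark, left) in MB against normal cerebellum, in percent, with dotted lines at the share over all 12394 genes (3.5% higher, 5.18% lower). The longest bars are falls of astrocyte, meninges, Purkinje and choroid plexus genes and rises of microglia and macrophage genes.

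A few genes of neurons changed. Of 24 measured genes of synapse and axon 3 fell, all steady, and 2 rose, 1 of them steady. Of all genes 5.18% fell and 3.5% rose. The median difference on the list was -0.14. Neurofilament light and medium chains, which fill large axons, were at or near the floor in tumors. Nefl read 5.43, 5.35 and 6.57 in tumors 1, 2 and 3, against 12.89 and 13.04 at P6 and 13.30 in the adult and fell by 7.29 (SE 0.47, adjusted p = 0.000157). Nefm, its neighbour on chromosome 14, read 5.00, 5.31 and 6.65 in tumors 1, 2 and 3, against 10.64 and 10.99 at P6 and 11.36 in the adult. The surface protein Thy1 read 7.29, 6.54 and 7.43 in tumors 1, 2 and 3, against 10.12 and 10.26 at P6 and 12.07 in the adult. Elavl3, an RNA binding protein of young neurons, was a steady rise at 10.99, 10.69 and 10.59 in tumors 1, 2 and 3, against 9.99 and 9.76 at P6 and 9.82 in the adult, by 0.90 (SE 0.13, adjusted p = 0.00775). Stmn2, of growing axons, read 12.82, 12.51 and 12.45 in tumors 1, 2 and 3, against 13.15 and 13.26 at P6 and 12.40 in the adult, with tumors between the control ages. The other rise, Rbfox3, ended without any 1 tissue array or line SMB55.

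Of 18 measured glutamate and GABA receptor genes 4 fell, against 5.18% of all genes, and 2 of the falls were steady. By limma 0 rose (1 rise at an unadjusted p under 0.05). Without tumor 3 the falls were 2. Grik1, a kainate receptor subunit, read 5.23, 5.20 and 5.52 in tumors 1, 2 and 3, against 7.67 and 7.12 at P6 and 7.98 in the adult. Gabrg1, a GABA receptor subunit, read 5.38, 5.47 and 5.38 in tumors 1, 2 and 3, against 9.06 and 9.44 at P6 and 10.11 in the adult. Gria1, an AMPA receptor subunit of Bergmann glia and other cells, read 5.98, 5.49 and 5.33 in tumors 1, 2 and 3, against 9.47 and 9.41 at P6 and 12.80 in the adult and lost its call without tumor 3 (0.0536). Gria2 overlapped, at 11.57, 11.23 and 11.99 in tumors 1, 2 and 3, against 11.89 and 11.58 at P6 and 11.62 in the adult.

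Microglia and macrophage genes were the list with the most rises. Of 24 measured, 10 rose, 5 of them steady, and 1 fell, against 3.5%, 0.71% and 5.18% of all genes. The rises were 6 without P6 replicate 2 or tumor 2 and 5 without tumor 3. Against P6 12 rose, against 4.3% of all genes, with 4 rises without P6 replicate 1 and 7 without P6 replicate 2. Against the adult 7 rose and 4 fell, against 15.2% and 15.7% of all genes. The median difference was 0.52 from all cerebella, 0.74 from P6 and 0.21 from the adult. Lysozyme, made by macrophages, has near-identical genes Lyz1 and Lyz2 side by side on chromosome 10 whose signals the array may share. Lyz2 read 12.90, 11.94 and 12.92 in tumors 1, 2 and 3, against 8.75 and 9.53 at P6 and 10.51 in the adult. Lyz1 read 13.27, 12.55 and 13.28 in tumors 1, 2 and 3, against 9.84 and 10.53 at P6 and 11.39 in the adult. All tumors were above all controls, and the adult was above P6. Cd68, a lysosomal protein of phagocytes, read 8.49, 8.55 and 9.00 in tumors 1, 2 and 3, against 6.82 and 7.14 at P6 and 6.47 in the adult. The pore protein Mpeg1 read 10.10, 10.21 and 10.72 in tumors 1, 2 and 3, against 8.29 and 8.50 at P6 and 9.09 in the adult. The complement subunit C1qc read 9.42, 9.99 and 9.89 in tumors 1, 2 and 3, against 8.45 and 8.83 at P6 and 8.70 in the adult. Ctss and C1qa were above P6 in every tumor but not above the adult in every tumor. Ctss read 12.17, 11.94 and 12.84 in tumors 1, 2 and 3, against 10.44 and 10.74 at P6 and 13.19 in the adult. C1qa read 10.48, 10.35 and 11.02 in tumors 1, 2 and 3, against 9.34 and 9.90 at P6 and 10.79 in the adult. Csf1r, the receptor on which microglia depend, did not follow. It read 9.85, 9.86 and 10.79 in tumors 1, 2 and 3, against 10.74 and 11.01 at P6 and 11.72 in the adult, with tumors 1 and 2 below every control, and did not pass at -0.99 (SE 0.33, adjusted p = 0.103). P2ry12, a receptor of resting microglia, read 6.21, 6.002 and 6.85 in tumors 1, 2 and 3, against 7.31 and 7.72 at P6 and 8.55 in the adult and fell by 1.51 (SE 0.33, adjusted p = 0.0327). That call was lost without P6 replicate 2, tumor 1, tumor 2, line SMB55 or line SMB56 (adjusted p between 0.0525 and 0.101), and without the adult 2 genes fell. Of the 24 genes 19 were highest in tumor 3. The mean over them was 8.61, 8.67 and 9.10 in tumors 1, 2 and 3, against 7.97 and 8.27 at P6 and 8.65 in the adult, so tumor 1 was below the adult.

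Among the largest steady rises over all genes were further genes of phagocytes. Gpnmb, a glycoprotein of lysosome-rich macrophages, read 9.21, 9.11 and 8.64 in tumors 1, 2 and 3, against 5.96 and 6.11 at P6 and 6.11 in the adult. Ms4a7, a membrane protein of macrophages, read 9.61, 9.43 and 10.36 in tumors 1, 2 and 3, against 7.15 and 6.94 at P6 and 7.10 in the adult. Mgl2, a lectin of macrophages and dendritic cells, read 9.65, 8.81 and 9.59 in tumors 1, 2 and 3, against 6.84 and 6.74 at P6 and 6.53 in the adult. They rose by 2.93, 2.73 and 2.65, with adjusted p of 7.37e-05, 0.000531 and 0.00813.

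Of 16 measured genes of lymphocytes and blood 1 rose, Nkg7, and 1 fell, against 3.5% and 5.18% of all genes. The rise ended without either P6 array, tumor 2 or tumor 3, and 2 fell without P6 replicate 1. Alas2, which makes heme in red cell precursors, was a steady fall at 5.98, 5.90 and 5.93 in tumors 1, 2 and 3, against 8.10 and 8.60 at P6 and 8.46 in the adult. Of 22 measured genes of interferon response and antigen presentation 1 rose against all cerebella, against 3.5% of all genes. The rises were 0 without either P6 array, any 1 tumor, line SMB21 or line SMB56.

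Few glycolysis genes passed the test, while the median gene of the list lay lower in tumors. The mean over the list was 10.695, 10.311 and 10.336 in tumors 1, 2 and 3. It was 10.686 and 10.776 at P6 and 11.751 in the adult, so tumor 1 lay between the P6 arrays. Of 19 measured genes 1 rose and 2 fell against all cerebella, against 3.5% and 5.18% of all genes. By limma 8 were lower at an unadjusted p under 0.05. The median difference was -0.88, against 0.04 for all genes, and 8 genes were below all controls in every tumor, against 17% of all genes. Against P6 2 fell, against 6.68% of all genes. The median was -0.36, and 0 fell without either P6 array or tumor 3 and 1 without tumor 1. Against the adult 10 fell, against 15.7% of all genes. Hexokinase 2 (Hk2), which takes the first step of glycolysis, read 11.73, 11.87 and 12.98 in tumors 1, 2 and 3, against 8.10 and 8.20 at P6 and 9.32 in the adult. It rose by 3.65 (SE 0.46, adjusted p = 0.00437) and was steady. Gapdh read 13.64, 13.90 and 13.72 in tumors 1, 2 and 3, against 13.48 and 13.50 at P6 and 13.91 in the adult. Aldoa read 12.82, 12.11 and 12.02 in tumors 1, 2 and 3, against 12.10 and 12.05 at P6 and 13.88 in the adult. The adult was highest in both. Aldoc, also an astrocyte gene, read 8.33, 9.80 and 8.36 in tumors 1, 2 and 3, against 12.05 and 12.39 at P6 and 14.93 in the adult. Slc16a1, a lactate carrier, read 11.29, 11.11 and 11.05 in tumors 1, 2 and 3, against 12.60 and 12.68 at P6 and 12.01 in the adult. Both falls were lost without tumor 1 (0.073 and 0.0714), tumor 3 (0.0901 and 0.107) or P6 replicate 2 (0.0542 and 0.1). That of Slc16a1 was also lost without P6 replicate 1 (0.085), tumor 2 (0.0959) or line SMB55 (0.0515).

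Of 22 measured Wnt and Notch genes 2 rose and 4 fell against all cerebella, and 2 rose and 9 fell against P6. Of all genes 3.5% and 5.18% did, and 4.3% and 6.68% against P6. The 4 falls were 1 without either P6 array, tumor 1 or tumor 3, 2 without tumor 2 or line SMB56, and 9 without the adult. The 9 falls from P6 were 2 without either P6 array, 4 without tumor 1 or tumor 3 and 5 without tumor 2. The rises were of Sfrp1 and Nkd1, and 0 were left without tumor 1 or tumor 3 and 1 without either P6 array, tumor 2, line SMB55 or line SMB56. Notch3, a receptor of pericytes and other mural cells, was the steady one at 6.84, 7.12 and 6.65 in tumors 1, 2 and 3, against 8.97 and 8.65 at P6 and 8.02 in the adult. Of 24 measured growth factors and receptors 2 rose and 4 fell, against 3.5% and 5.18% of all genes, with Igf2 and Pdgfrb the steady falls. The falls were 8 without line SMB21 and 2 without either P6 array, tumor 1 or tumor 3. The rises, of Igf1r and Ntrk3, were 0 without either P6 array or any 1 tumor and 1 without the adult or any 1 line. Neither list's median kept its sign when arrays were centred or quantile normalized.

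Several of the largest rises were of genes that the controls hardly showed. Prm1, a protamine that packs sperm DNA, read 11.10, 12.11 and 10.57 in tumors 1, 2 and 3, against 5.09 and 5.07 at P6 and 5.00 in the adult. It was the largest rise, 6.20 (SE 0.93, adjusted p = 0.00858), with tumor 2 highest. A second of its 3 probe sets rose by 5.74, and the third differed by 0.51 and did not pass. Of 19 measured germ cell genes no other passed, where 3.5% of all genes rose and 5.18% fell. Of the 19, 14 had their tumor mean and every control array at the floor. Prm2, next to Prm1 on chromosome 16, read 5.56, 5.67 and 5.43 in tumors 1, 2 and 3, against 5.43 and 5.40 at P6 and 5.69 in the adult. Foxa2, a forkhead factor of the floor plate and endoderm, read 9.21, 9.996 and 10.14 in tumors 1, 2 and 3, against 5.54 and 5.54 at P6 and 6.13 in the adult, and rose by 4.05 (SE 0.37, adjusted p = 0.00087). Of 21 measured homeobox and forkhead factors of other regions Foxa2 and Lhx2 rose and Irx3, Nkx2-2 and Msx2 fell, all 5 steady. Of all genes 0.71% were steady rises and 2.01% steady falls. Without the adult 5 of the 21 fell. Irx3 read 7.09, 6.59 and 6.23 in tumors 1, 2 and 3, against 9.41 and 9.54 at P6 and 9.81 in the adult. Msx2 read 5.55, 5.75 and 5.56 in tumors 1, 2 and 3, against 7.02 and 6.67 at P6 and 6.90 in the adult. Pax3, of the dorsal neural tube, read 7.61, 6.64 and 7.14 in tumors 1, 2 and 3, against 9.53 and 9.54 at P6 and 7.92 in the adult, nearer the adult than P6. En2, which marks the region of the cerebellum, overlapped at 11.32, 10.24 and 10.93 in tumors 1, 2 and 3, against 10.96 and 10.88 at P6 and 11.41 in the adult. Of 12 markers of other tissues 0 passed by limma, where 3.5% of all genes rose and 5.18% fell. At an unadjusted p under 0.05 2 of the 12 rose.

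Other steady rises among the 12 largest were of Cacna2d1, a calcium channel subunit, Fam210b, a mitochondrial protein, and Fbxo32, a ubiquitin ligase known from wasting muscle. Cacna2d1 read 11.20, 10.98 and 11.84 in tumors 1, 2 and 3, against 9.05 and 8.34 at P6 and 7.23 in the adult. Fam210b read 11.61, 13.03 and 12.39 in tumors 1, 2 and 3, against 9.68 and 9.75 at P6 and 8.53 in the adult. Fbxo32 read 9.53, 9.98 and 9.87 in tumors 1, 2 and 3, against 6.67 and 7.10 at P6 and 7.40 in the adult. Steady falls outside the lists included Id4, an inhibitor of basic helix-loop-helix factors, at 6.46, 7.87 and 5.65 in tumors 1, 2 and 3, against 12.24 and 12.40 at P6 and 13.31 in the adult. Ccn3, a secreted matrix protein, read 5.17, 5.32 and 5.48 in tumors 1, 2 and 3, against 10.99 and 10.49 at P6 and 11.14 in the adult. Spock3, a proteoglycan, read 4.92, 4.92 and 4.92 in tumors 1, 2 and 3, against 10.21 and 9.81 at P6 and 11.05 in the adult. In Spock3 all 3 tumors were at the floor. Ednrb, an endothelin receptor of glia, read 6.03, 6.49 and 6.13 in tumors 1, 2 and 3, against 11.70 and 11.82 at P6 and 11.01 in the adult and fell from P6 by 5.55 (SE 0.38, adjusted p = 0.000261), a call that held in every leave-one-out fit.

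Further large rises over P6 differed in their adult level. Sowaha read 10.31, 10.67 and 11.22 in tumors 1, 2 and 3, against 6.002 and 5.78 at P6 and 8.97 in the adult, so the adult lay between P6 and the tumors. H2-Aa, a class II antigen presenting molecule, read 7.19, 10.69 and 9.25 in tumors 1, 2 and 3, against 5.49 and 5.48 at P6 and 10.15 in the adult. The adult was above tumors 1 and 3. Tecta, a matrix protein of the inner ear, read 10.02, 7.93 and 10.11 in tumors 1, 2 and 3, against 5.64 and 5.46 at P6 and 5.58 in the adult, low at both ages. The calls of these 3 genes over P6, at 4.84, 3.56 and 3.80 with adjusted p of 0.032, 0.0453 and 0.0255, each ended without either P6 array or tumor 3 (adjusted p between 0.0745 and 0.246). Those of Sowaha and Tecta also ended without tumor 1 (0.0594 and 0.0617), that of Sowaha without tumor 2 (0.0675), and that of H2-Aa without any 1 line (0.0575 to 0.0701).

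A few genes placed the tumors strictly between the ages. Tumors were called higher than P6 and lower than the adult in 12 genes (0.0968%) and lower than P6 and higher than the adult in 6 (0.0484%). Nr1d2, a repressor of the circadian clock, read 12.28, 12.30 and 12.14 in tumors 1, 2 and 3, against 11.06 and 10.93 at P6 and 13.30 in the adult. Its rise over P6 was 1.24 (SE 0.13, adjusted p = 0.00159) and held in every leave-one-out fit. Icmt, a methyltransferase of prenylated proteins, read 9.50, 9.43 and 9.56 in tumors 1, 2 and 3, against 8.55 and 8.50 at P6 and 11.27 in the adult. Crebrf, a regulator of the stress factor Creb3, read 9.38, 9.65 and 9.34 in tumors 1, 2 and 3, against 8.37 and 8.36 at P6 and 10.81 in the adult. Ifitm10 read 7.53, 7.28 and 7.68 in tumors 1, 2 and 3, against 6.20 and 6.60 at P6 and 8.59 in the adult. The opposite order held for Cd93, an endothelial receptor, at 7.03, 7.48 and 6.46 in tumors 1, 2 and 3, against 9.47 and 9.37 at P6 and 5.92 in the adult, and for the iron exporter Slc40a1, at 8.89, 8.04 and 9.36 in tumors 1, 2 and 3, against 10.25 and 10.17 at P6 and 7.08 in the adult. Cd93 fell from P6 by 2.43 (SE 0.26, adjusted p = 0.00191) in every leave-one-out fit. The P6 calls of Icmt, Crebrf and Slc40a1 ended without either P6 array (adjusted p between 0.112 and 0.24), that of Ifitm10 without P6 replicate 1 (0.0937), that of Icmt without tumor 3 (0.0589), that of Slc40a1 without tumor 1 (0.082) or any 1 line (0.0558 to 0.0646), and that of Crebrf without any 1 tumor (0.0569 to 0.0661).

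The tumors differed from each other in sets of genes. Genes whose highest tumor value was at or above the median level, clone-like names passed over, numbered 6455. Of these, tumor 1 lay at least 2 (log2) above both other tumors in 40 and below both in 2. For tumor 2 the counts were 22 and 22, and for tumor 3 they were 4 and 5. Each gene was counted once, by its larger gap. With 1 array per tumor these differences have no test. Tumor 1 was high in genes of mature granule neurons. Gabra6, a GABA receptor subunit of mature granule neurons, read 12.60, 5.89 and 9.10 in tumors 1, 2 and 3, against 7.80 and 8.66 at P6 and 13.74 in the adult, so tumor 1 approached the adult and tumor 2 was at the floor. Chn2 read 11.70, 6.82 and 8.45 in tumors 1, 2 and 3, against 9.46 and 9.74 at P6 and 12.68 in the adult. The synaptic protein Snap25 read 13.56, 11.04 and 12.08 in tumors 1, 2 and 3, against 11.26 and 11.49 at P6 and 14.08 in the adult. Of 16 measured mature granule genes 13 were highest in tumor 1. Their mean was 10.26 in tumor 1, 8.20 in tumor 2 and 8.61 in tumor 3, against 9.00 and 9.07 at P6 and 10.99 in the adult. Tumor 1 was also highest in 13 of 24 synapse and axon genes and 9 of 18 glutamate and GABA receptor genes. The pattern is thus not particular to granule neuron genes. The synapse and axon mean was 9.761, 9.016 and 9.426 in tumors 1, 2 and 3, against 10.163 and 10.135 at P6 and 10.323 in the adult. By limma 0 of the 16 mature granule genes passed against all cerebella, where 3.5% of all genes rose and 5.18% fell. Of the 16, 2 fell at an unadjusted p under 0.05. Without tumor 1 3 of them were called lower, as were 363 of the 12394 genes. Tumor 1 was also alone in the troponin Tnnc2, 12.54, 6.59 and 6.92 in tumors 1, 2 and 3, against 6.13 and 6.49 at P6 and 6.83 in the adult. Eomes, a factor of unipolar brush cells, read 10.44, 6.59 and 6.46 in tumors 1, 2 and 3, against 10.30 and 10.21 at P6 and 9.41 in the adult, with tumor 1 at the P6 level. Bdnf, a neurotrophin, read 10.21, 6.93 and 7.18 in tumors 1, 2 and 3, against 7.04 and 6.97 at P6 and 9.09 in the adult. The motor subunit Dync1i1 read 12.18, 8.07 and 8.24 in tumors 1, 2 and 3, against 9.30 and 9.36 at P6 and 12.31 in the adult, with tumor 1 at the adult level.

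Tumor 2 was high in interferon and antigen presentation genes. Of 22 measured 19 were highest in tumor 2. Their mean was 7.08 in tumor 1, 8.51 in tumor 2 and 7.62 in tumor 3, against 6.94 and 7.05 at P6 and 8.33 in the adult. Iigp1, an interferon induced GTPase, read 6.53, 10.52 and 6.99 in tumors 1, 2 and 3, against 6.37 and 6.30 at P6 and 7.04 in the adult. B2m, the light chain of class I molecules, read 11.49, 12.87 and 11.96 in tumors 1, 2 and 3, against 11.37 and 11.51 at P6 and 12.56 in the adult. Tumor 2 was also alone in Gdpd3, at 6.58, 11.99 and 6.89 in tumors 1, 2 and 3, against 6.67 and 6.73 at P6 and 6.25 in the adult, and in the signalling protein Bmp5, at 6.32, 10.64 and 6.36 in tumors 1, 2 and 3, against 6.85 and 6.62 at P6 and 7.03 in the adult. It lacked the forkhead factor Foxd1 and the homeobox factor Otx2. Foxd1 read 11.82, 6.64 and 12.52 in tumors 1, 2 and 3, against 9.60 and 9.50 at P6 and 9.34 in the adult, with tumors 1 and 3 above every control. Otx2 read 9.96, 6.17 and 10.49 in tumors 1, 2 and 3, against 10.12 and 9.61 at P6 and 10.44 in the adult, with tumors 1 and 3 at the level of the controls. Chn2, Bdnf and Iigp1 were chosen after their values were seen. So were Kdr, Tek, Slc1a3, Ptgds, Lyz1, Lhx1, Rbfox3, P2ry12, Shh and Prm2 above, and the called genes Rab34, Mcm2, Cdt1, Ung, Plk1, Bub1b and Igf1r.

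**Figure D4:**
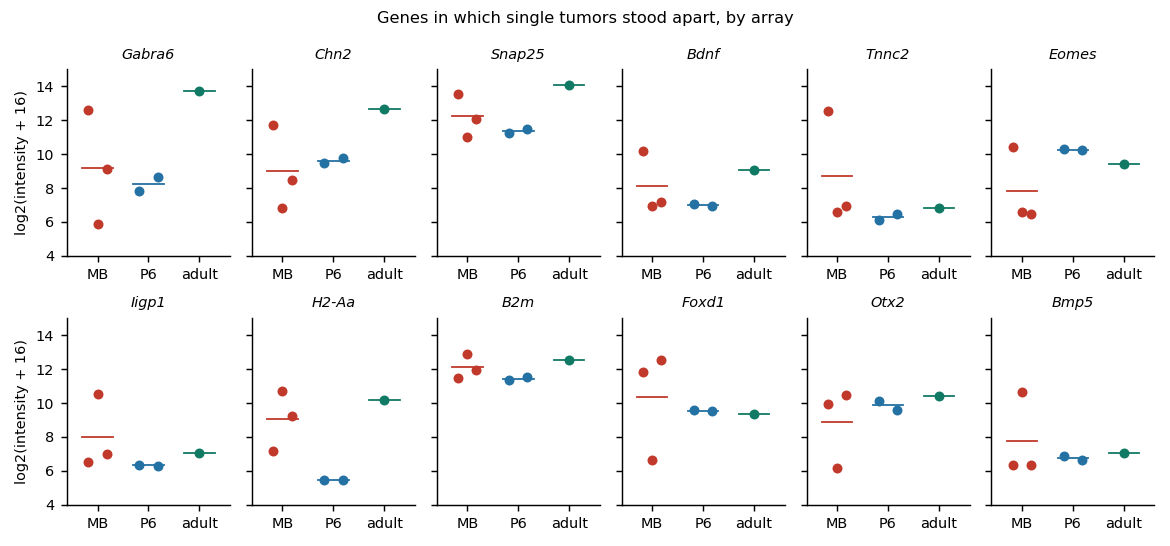
Levels of 12 genes in which single tumors stood apart, log2(intensity + 16), with 1 point per array in the order of replicates and a line at each group's mean (3 MB, 2 P6, 1 adult). Tumor 1 is the high point in Gabra6, Tnnc2 and Eomes, and tumor 2 the high point in Iigp1 and Bmp5 and the low point in Foxd1 and Otx2.

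Rises lay on chromosome 6 more often than genes as a whole, a pattern noticed after the values were seen. Of the 88 steady rises 20 (22.7%) were of genes on chromosome 6, against 12 of the 249 steady falls (4.82%) and 726 of all 12394 genes (5.86%). Of all 434 called rises 74 (17.1%) lay there. Over 326 genes of chromosome 6 at or above the median level, the median difference from the P6 mean was 0.47, 0.61 and 0.35 in tumors 1, 2 and 3, against -0.06 in the adult. On the other autosomes the same medians lay between -0.13 and 0.11 in the tumors. The genes Hk2, Gpnmb, Smo, Ccnd2, Atoh1, Cdkn1b and Foxm1 are on chromosome 6. Its part in their values was not tested.

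**Figure D5:**
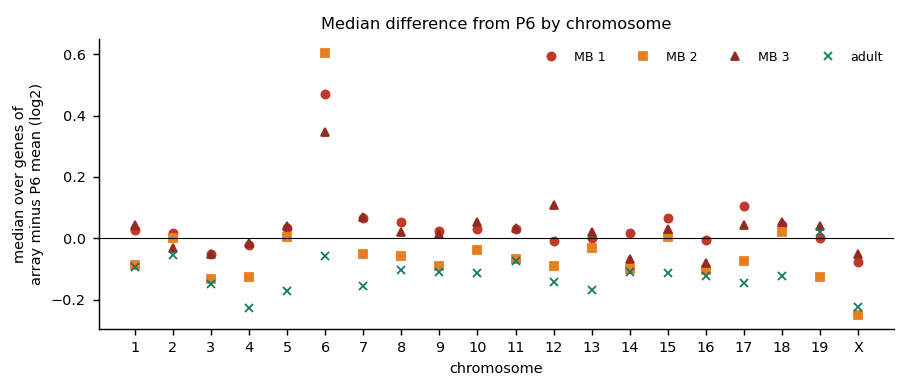
Median over genes of the difference of each MB array and the adult array from the P6 mean (log2), by chromosome, for genes at or above the median level. Chromosome 6 lies at 0.35 to 0.61 in the 3 tumors and near 0 in the adult.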

How the data were processed

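The 24 arrays are Affymetrix mouse expression arrays of snap-frozen tissue and cultured lines, with biotin-labelled total RNA per the labels. The deposited intensity values are linear, from 10.4 to 35492.2 on the 6 tissue arrays, 1 per probe set, with no missing value. How the authors summarised and scaled them is unstated in the labels and headers. Their medians differ between arrays, and no further scaling was applied. For arrays, depth is the number of arrays, and that number limits the precision.

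Of 22690 probe sets 20393 had 1 gene symbol in the platform annotation, 691 several and 1606 none, and the last 2 kinds were left out. Of 498 listed genes 432 were measured, so members without a probe set were not analysed. Levels were log2(intensity + 16), with the probe set of highest mean over all arrays kept per gene, which left 12394 genes and no filter on low values. The model was limma's (version 3.58.1, under R 4.3.3), with lmFit and eBayes on 9 values, which were 3 MB, 3 cerebella and 3 line means. P6 and adult had means of their own in the tests against each age. The 3 comparisons share the tumors, and all p-values were adjusted by Benjamini-Hochberg over all genes. An exact permutation test of 3 against 3 cannot go below p = 0.1. The limma step was tested on simulated data. Alternatives were the pseudocount, a filter on low genes, 2 scalings, the mean of a gene's probe sets, the variance prior, the 6 tissue arrays alone, P6 averaged to 1 sample, a replicate block and leaving out each array or line. Replicate numbers did not pair the samples, with deviations of same-numbered arrays correlated at -0.03 and 0.01.

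Named genes were the 12 largest steady rises and 12 largest steady falls, the 8 largest of each against P6, up to 4 called members of each of 26 lists by smallest p with highly expressed uncalled members as examples, the 6 genes called in opposite directions against P6 and adult, the 8 with the largest gap between 1 tumor and the others, and a set of Hedgehog and precursor genes always given. Genes named outside this rule, after their values were seen, are listed near the end of the results. The groups, the lists and this rule were chosen with earlier results of these data known. Promoter windows are from RefSeq, GRCm38.p6.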

Additional observations from a re-analysis of the deposited data

How the results depend on the processing

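Against all cerebella 1076 genes were called, and the count was 514 with the P6 arrays averaged, 639 with the replicate block, 3156 (1564 higher, 1592 lower) with separate means for P6 and adult, and between 409 and 1361 when 1 array or line was left out. The exact permutation test called 0 genes after adjustment and 0 at an unadjusted p under 0.05, and 4815 genes reached its smallest p of 0.1. Against P6 the count of 1361 was 329 with the P6 arrays averaged, 453 with the block and between 341 and 1650 in leave-one-out fits. Against the adult the count of 3826 was 2040 with the block and between 3063 and 4137 in leave-one-out fits. Pseudocounts of 0 and 64, the filter on low genes, centring, quantile normalization, the mean of probe sets, the trended robust prior and the fit of 6 arrays moved each of these counts by less than 1.5 times. Genes higher in the adult had the tumors nearer P6 in 176 to 304 cases and genes lower in the adult in 206 to 264, each of a set redefined by the alternative. Fits without the adult array were not run for those sets or for the adult comparison. Of the named genes' differences from all cerebella 1724 values kept direction and call over all alternatives, 112 lost the call, 26 gained it and 7 turned sign. For differences from P6 these numbers were 613, 94, 8 and 5. The sign of Ptch1 against all cerebella turned to 0.029 centred, 0.069 with the mean of probe sets, 0.145 without the adult, 0.123 without tumor 1 and 0.229 without tumor 2 (leave-one-out range -0.518 to 0.229), and against P6 to -0.318 with the block or without tumor 3 and -0.022 without P6 replicate 2 (range -0.318 to 0.43). Gabra6 against all cerebella turned to 0.963 without the adult and 0.781 without tumor 2 (range -2.573 to 0.963), and Top2a against P6 to -0.037 with the block or without tumor 3 (range -0.037 to 0.187). The block lowered the calls although replicate numbers mark no shared animal, and the cause was not tested. With 1 adult array, age and array cannot be told apart, and with 2 P6 arrays the spread at P6 rests on 1 pair. Against all cerebella the pooled controls count the gap between the ages as spread. Whether Gli2, Sufu, Mycn, Ccnd1, Ccnd2, Cdkn2c, Cdkn1b, Atoh1 and Barhl1 passed there depended on whether P6 and adult had means of their own. Signal near the floor limits weak genes such as Shh and Gli3.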

Other observations

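Imprinted genes, which are expressed from 1 parental copy, formed a group that the lists above do not cover, chosen after values were seen. Of 24 measured, 0 rose and 5 fell, against 3.5% and 5.18% of all genes. Of the falls 4 held in every leave-one-out fit, and the median difference was -0.37 against 0.04 for all genes. Meg3, a long noncoding RNA, read 7.26, 7.29 and 7.69 in tumors 1, 2 and 3, against 10.42 and 9.77 at P6 and 10.25 in the adult. Rian, a noncoding RNA of the same cluster on chromosome 12, read 6.45, 6.83 and 7.18 in tumors 1, 2 and 3, against 11.38 and 11.51 at P6 and 11.41 in the adult. Grb10, an adaptor that restrains insulin receptor signalling, read 7.18, 6.27 and 6.46 in tumors 1, 2 and 3, against 11.01 and 10.83 at P6 and 9.62 in the adult. The falls were -2.74, -4.61 and -3.85, with adjusted p by limma of 0.00033, 1.94e-05 and 0.00886. Igf2, described among the Hedgehog targets, was the fourth. Ndn read 9.33, 9.63 and 6.40 in tumors 1, 2 and 3, against 13.12 and 13.13 at P6 and 13.21 in the adult. Tumor 3 was lowest, and the call of Ndn ended without any 1 tissue array or line SMB56 (adjusted p by limma between 0.0529 and 0.0895). Its other probe sets with a mean level above the floor fell by 4.60 to 5.14. They did not pass over all probe sets (adjusted p by limma between 0.0882 and 0.138).

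Genes of the sex chromosomes differed between arrays. Xist, transcribed from the inactive X, read 6.27, 8.86 and 6.53 in tumors 1, 2 and 3, against 5.98 and 6.10 at P6 and 7.34 in the adult. Uty, on the Y chromosome, read 9.05, 4.93 and 9.06 in tumors 1, 2 and 3, against 8.91 and 8.99 at P6 and 8.78 in the adult. Tumor 2 was alone among the tumors in high Xist and low Uty. Eif2s3y, a Y-linked translation factor, read 9.97, 5.10 and 5.74 in tumors 1, 2 and 3, against 10.27 and 10.45 at P6 and 8.55 in the adult, with tumor 3 low where its Uty was high. The median difference of 204 X-linked genes from P6 was -0.08, -0.25 and -0.05 in tumors 1, 2 and 3, and -0.22 in the adult.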
